A study of Mus musculus with 2 samples.

Results

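A set of 8 genes that mark the alveolar type 1 (AT1) cell of the mouse lung were followed across the cells of newborn lung, namely Ager, Hopx, Aqp5, Pdpn, Akap5, Rtkn2, Scel and Clic3. The genes were chosen by name, and all 8 had a row in the count tables of both batches, out of 27254 genes with a row in either table. Whole lung (left and right lobes) of female wild-type C57BL/6J mice was dissociated with enzymes at postnatal day 1 (PND1), and its cells were sequenced by Drop-seq, a droplet method in which each captured transcript is counted once by its unique molecular identifier (UMI). There was 1 mouse in each of 2 batches, with no treatment or comparison group, so that batch and mouse cannot be told apart and each value below rests on 2 mice at most. Cells with more than 10% of their UMIs from mitochondrial genes were left out.

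AT1 cells are the thin, wide squamous cells that cover most of the alveolar surface and form the gas exchange barrier with the capillaries beneath them. They share the alveolus with cuboidal alveolar type 2 (AT2) cells, which make surfactant. The genes differ in what they encode. Ager encodes RAGE, a membrane receptor of the immunoglobulin family placed on the basal side of AT1 cells, and Pdpn encodes podoplanin, a mucin-like membrane glycoprotein that binds CLEC-2 and is also a classical marker of lymphatic endothelium. Aqp5 is a water channel of the apical membrane, and Clic3 belongs to the chloride intracellular channel family. Akap5 holds protein kinase A and calcineurin near the membrane, Rtkn2 belongs to the rhotekin family, Hopx is a small homeodomain protein that does not bind DNA itself, and Scel encodes sciellin, a precursor of the cornified envelope of squamous epithelia.

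In GRCm38, the build of mm10, all 8 are protein-coding genes on 8 different chromosomes. Ager spans chr17:34597862-34600936, Aqp5 chr15:99590782-99594829, Akap5 chr12:76324891-76334153, Rtkn2 chr10:67979570-68059740, Scel chr14:103513342-103612797 and Clic3 chr2:25456838-25458776, each on the plus strand. Hopx at chr5:77086988-77115121 and Pdpn at chr4:143267431-143299564 lie on the minus strand. Of these, 3 overlap a gene on the opposite strand: Hopx overlaps the antisense gene Hopxos, Rtkn2 the antisense gene Gm16212, and Clic3 the protein-coding gene Paxx. Whether the counting used strand is not given in the sources used here, so reads of these overlaps may be shared.

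Because the genes are high in the same cells, their start regions were set side by side. RefSeq windows from 250 bases before to 50 bases after the annotated start were matched for 7 of the 8 genes (not Rtkn2), in 8 windows, since Hopx has 2. Each was searched on both strands for a core promoter box spelled TATAAA, for a GC box spelled GGGCGG, for a binding core of TEAD factors spelled GGAATG and for a core of the lung factor NKX2-1 spelled CACTTG. No match in the 8 windows overlapped another. The core promoter box was in 0 of the 8 windows and in 13.6% of 32851 windows of all genes. The TEAD core was also in 0 of the 8, against 14.7% of all. A GC box was in 4 windows, those of Akap5, Aqp5, Clic3 and Pdpn, against 35.7% of all windows. The NKX2-1 core was in 2 windows, the downstream one of Hopx and that of Scel, against 13.6%. No motif was in all 8 windows. The 4 windows printed span the range seen: Ager (chr17:34597600-34597899, plus strand) holds no match, Aqp5 (chr15:99590778-99591077, plus strand) holds GC boxes and has the highest GC content of the 8 at 79.7%, and Hopx (chr5:77095218-77095517, minus strand) and Scel (chr14:103513091-103513390, plus strand) hold the NKX2-1 core. The Aqp5 window begins at 99590778, while the gene span given above begins at 99590782, so nearly all of this window lies inside that span. Capitals mark the matches. The median GC content of all windows was 52.7%.
Ager: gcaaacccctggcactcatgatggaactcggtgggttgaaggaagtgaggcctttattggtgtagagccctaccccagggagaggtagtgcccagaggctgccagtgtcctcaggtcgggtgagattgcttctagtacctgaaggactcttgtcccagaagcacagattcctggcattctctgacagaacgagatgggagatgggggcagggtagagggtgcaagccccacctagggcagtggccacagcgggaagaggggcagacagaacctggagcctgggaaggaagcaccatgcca
Aqp5: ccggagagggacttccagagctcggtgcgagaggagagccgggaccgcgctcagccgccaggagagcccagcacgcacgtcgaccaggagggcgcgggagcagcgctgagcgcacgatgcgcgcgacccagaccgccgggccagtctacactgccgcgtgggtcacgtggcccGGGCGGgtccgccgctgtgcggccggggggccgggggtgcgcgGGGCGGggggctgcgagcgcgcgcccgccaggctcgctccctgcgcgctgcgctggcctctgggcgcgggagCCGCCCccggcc
Hopx: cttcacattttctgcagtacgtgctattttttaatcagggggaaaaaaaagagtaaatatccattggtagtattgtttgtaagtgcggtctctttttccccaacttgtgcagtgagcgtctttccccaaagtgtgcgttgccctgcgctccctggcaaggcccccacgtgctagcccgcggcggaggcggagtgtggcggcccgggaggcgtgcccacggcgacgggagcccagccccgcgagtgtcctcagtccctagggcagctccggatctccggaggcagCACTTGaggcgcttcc
Scel: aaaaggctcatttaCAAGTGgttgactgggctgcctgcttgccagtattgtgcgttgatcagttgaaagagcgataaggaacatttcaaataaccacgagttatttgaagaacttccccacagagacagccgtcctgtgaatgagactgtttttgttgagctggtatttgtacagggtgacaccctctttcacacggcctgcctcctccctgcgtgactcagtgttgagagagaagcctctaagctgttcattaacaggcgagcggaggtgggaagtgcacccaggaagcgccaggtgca

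The count tables held 2389 cells in Batch 1 and 7555 in Batch 2, of which 2388 and 5615 remained after the mitochondrial limit. The median UMIs per cell were 1386.5 and 2014, no cell barcode was shared, and the 8 genes gave 6368 and 31996 UMIs. Clusters were made from the other genes, with the 8 left out, and named from marker lists that do not hold them. AT1-like cells numbered 68 in Batch 1 and 300 in Batch 2. Their larger cluster had a mean log2 fold over other cells of 2.61 for the AT1 marker list and -2.64 for the AT2 list, and its leading genes S100a14, Msln, Spock2, Scnn1g and Tmem37 included Msln, which was on the mesothelial list. A mixed alveolar class of 48 and 336 cells carried both marker lists, and 178 and 684 cells were AT2-like. The mixed class joined clusters of unlike balance. The largest (31 and 234 cells) had mean log2 folds of 1.44 for the AT1 and 1.58 for the AT2 list. Another (13 and 70 cells) leaned to AT1, at 1.97 and 0.82, and the smallest (4 and 32 cells) to AT2, at 0.60 and 1.63. The median mitochondrial share of AT1-like cells was 1.51% in Batch 1 and 6.36% in Batch 2.

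Levels are UMIs of a gene per 10000 UMIs of the class, not divided by gene length, so they compare a gene across classes and not one gene with another. In AT1-like cells Ager stood at 74.2 in Batch 1 (95% Poisson interval 69.6 to 79.0) and 51.5 in Batch 2 (49.8 to 53.2). Akap5, the kinase anchor, stood at 18.9 and 25.8. Hopx was 18.5 and 11.7, the water channel gene Aqp5 11.1 and 11.7, and Clic3 12.3 and 9.10. Rtkn2 was 11.9 and 9.18. Pdpn was 4.08 and 7.86 and Scel 1.00 and 3.17, so these last were the genes for which the mice differed most in ratio. Intervals and floors cover counting error only, since cells of 1 mouse are not replicates.

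The same order of classes held for most genes. By the mean of the batches, AT1-like cells came highest for all 8 genes, and the lower AT1-like batch lay above the higher batch of the next class for all but Scel. Mixed alveolar cells came next for 7 genes, the exception being Clic3, where ciliated-like cells did. Their Ager level was 44.6 and 21.8, their Akap5 level 8.95 and 11.3 and their Pdpn level 1.86 and 2.28. For all 8 genes both batches of the mixed class lay above both batches of AT2-like cells. AT2-like cells still held Ager at 8.91 and 6.53, Clic3 at 2.05 and 2.27 and Akap5 at 1.20 and 2.48. Scel, in contrast, had 0 of 448828 UMIs in AT2-like cells of Batch 1, which allows up to 0.0668 per 10000, and 31 UMIs (0.0935 per 10000) in Batch 2. For Aqp5, Rtkn2 and Scel, each class from AT2-like cells down to the sixth place had a range that overlapped that of the next.

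**Figure D1:**
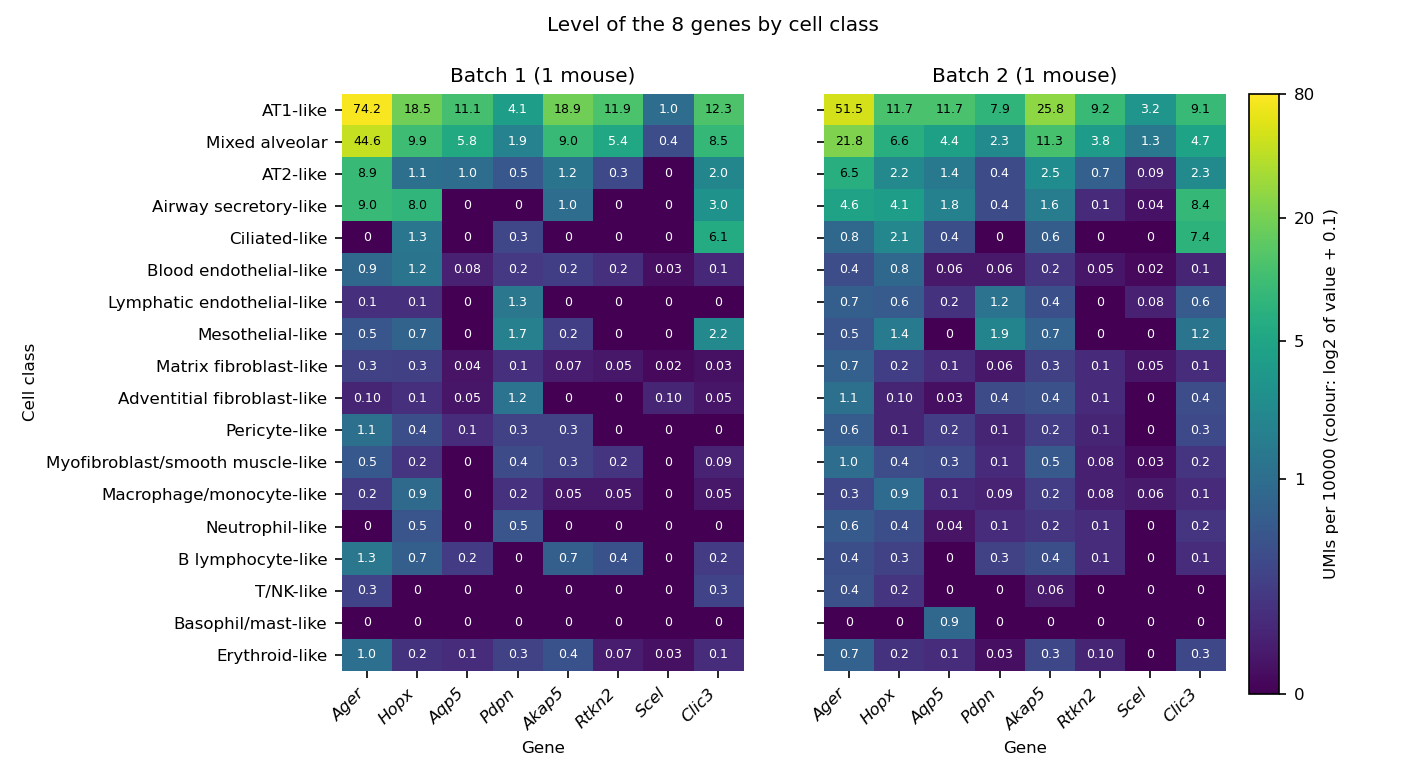
Levels of the 8 genes in 18 named cell classes, as UMIs per 10000 printed in each cell and coloured on a log2 scale of the value plus 0.1, with 1 panel per batch. Ager reaches 74.2 and 51.5 in the top row (AT1-like cells), while Clic3 is also raised in the ciliated-like row, at 6.08 and 7.35.

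To ask how far the genes separate AT1-like from AT2-like cells, counts were summed by class and batch and fitted with edgeR's quasi-likelihood test, with batch as a block. All 15 classes entered 1 fit. Each SE and p therefore rests on a spread pooled over these classes, not on that of the compared classes alone. All 8 genes were higher in AT1-like cells at an adjusted p under 0.05, where 5.26% of the 8174 genes tested were called higher. The genes that define the classes are among those 8174, while the 8 had no part in the clustering. Scel had the largest fold at 30.0 (log2 4.91 ± 0.58 SE, adjusted p = 4.34e-08). Rtkn2 was 15.8-fold higher (log2 3.99 ± 0.43, adjusted p = 6.49e-09), Pdpn 12.7-fold (3.67 ± 0.46, 8.88e-08) and Akap5 10.3-fold (3.37 ± 0.42, 7.26e-08). Ager, for which AT2-like cells kept the most UMIs, was 6.66-fold higher (2.73 ± 0.45, 1.66e-05). Hopx and Aqp5 gave log2 folds of 2.84 ± 0.38 and 2.98 ± 0.40. Clic3 had the smallest fold at 4.08 (2.03 ± 0.42, adjusted p = 0.00057), and its call was lost with DESeq2 (adjusted p = 0.0635) and without the replicate block (0.060). Each gene was higher in both batches taken alone, and the median log2 fold of the 8 was 3.18, against -0.06 over all genes tested. The batches differed most for Pdpn, with log2 differences of 2.56 and 4.13, and for Hopx, with 3.68 and 2.2.

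Against the mixed alveolar class, none of the 8 genes passed. edgeR called 0 of 8, DESeq2 called 0 of 8, and 5 of 8 had an unadjusted p under 0.05, while 1.86% of all genes tested were called in either direction. All 8 values nonetheless lay higher in AT1-like cells in both batches, with a median log2 fold of 1.00 against -0.02 over all genes. In data simulated for AT1-like against AT2-like cells only 6% of genes changed by log2 1 were found, and 30% at 1.5. This contrast was not simulated, and the lack of calls in it does not show equal levels. Pdpn came closest (1.44 ± 0.41, adjusted p = 0.0565) and Clic3 was furthest away (0.55 ± 0.41, adjusted p = 0.816). Ager lay at 0.78 ± 0.43, Hopx at 0.71 ± 0.35, Aqp5 at 1.02 ± 0.37, Akap5 at 0.98 ± 0.39, Rtkn2 at 1.06 ± 0.39 and Scel at 1.11 ± 0.46. The mixed cells were deeper, with median UMIs of 3960 and 5422.5 against 1525.5 and 1900.5 in AT1-like cells, and Scrublet, a doublet caller, marked 0 and 4 of them. The part of doublets, of depth or of the AT1-leaning cluster of this class in their levels was not tested.

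Blood endothelial-like cells, the capillary and vessel lining that lies against AT1 cells, served as a non-epithelial reference of 524 and 1456 cells. All 8 genes were higher in AT1-like cells (12.3% of genes tested were called higher), with a median log2 fold of 6.87. Aqp5 lay at the top (7.58 ± 0.51, adjusted p = 1.15e-14) and Hopx at the bottom (4.01 ± 0.40, adjusted p = 3.66e-11). Hopx was at 1.22 and 0.847 UMIs per 10000 in the endothelium, from 118 and 370 UMIs, and Aqp5 at 0.0827 and 0.0595, from 8 and 26. The contrasts share classes and are given side by side, not as separate support.

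AT2-like cells in turn were higher than blood endothelial-like cells for all 8 genes by edgeR, where 15.8% of genes tested were called higher. Clic3 (4.78 ± 0.51, adjusted p = 2.05e-10), Aqp5 (4.59 ± 0.48, 2.05e-10) and Ager (4.11 ± 0.49, 3.47e-09) led. Akap5 followed at 3.56 ± 0.46, Rtkn2 at 3.14 ± 0.49 and Pdpn at 2.40 ± 0.50. Hopx and Scel were at the margin. For Hopx (1.18 ± 0.37, adjusted p = 0.0104) the level per 10000 in Batch 1 was 1.09 in AT2-like and 1.22 in endothelial cells, and only with edgeR's scaling of library composition was the Batch 1 difference above 0, at 0.31 on the log2 scale. Without the replicate block its adjusted p was 0.093. Scel (1.99 ± 0.70, adjusted p = 0.0261) rested on Batch 2, and in Batch 1 alone its log2 difference was -0.88, from 0 UMIs in AT2-like and 3 in endothelial cells. An AT2-like cluster of deep cells bore on Scel as well. That cluster held 4 and 114 cells, had a median of 8621 UMIs in Batch 2 and carried 24.5 UMIs of the 8 genes per 10000 there. Its mean log2 fold for the AT1 marker list was 0.25, against -1.25 to -0.66 in the other AT2-like clusters. Without this cluster the Scel log2 fold fell to 0.18 (adjusted p = 0.904). DESeq2 (adjusted p = 0.514) and the fit without the replicate block (0.131) did not call Scel either.

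**Figure D2:**
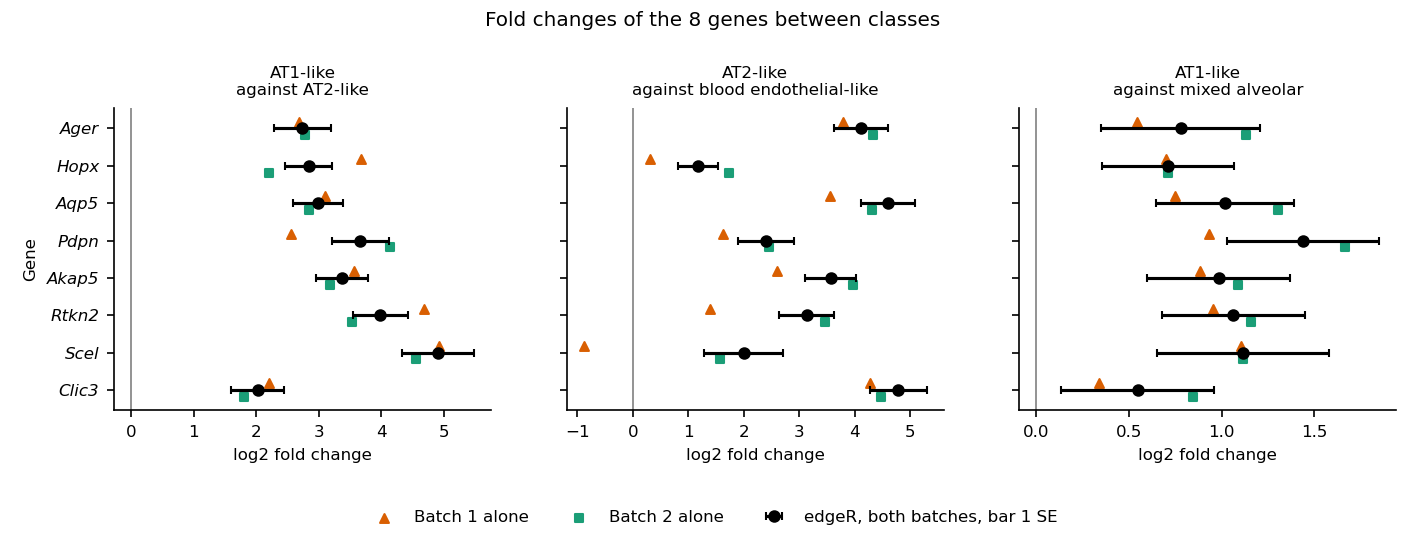
Log2 fold change of each of the 8 genes (horizontal axis) for 3 class contrasts, with black points for the edgeR fit of both batches and bars of 1 SE, triangles for Batch 1 alone and squares for Batch 2 alone. All points of the left and right panels lie above 0, and in the middle panel the Scel value of Batch 1 lies at -0.88.

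Detection was counted as cells with at least 1 UMI. Before thinning, Ager was found in 100% and 99.3% of AT1-like cells, Akap5 in 85.3% and 93.7%, Hopx in 85.3% and 83.3%, Rtkn2 in 80.9% and 70.3% and Clic3 in 73.5% and 76.3%. Scel was found in the fewest, 19.1% and 38.3%. Since classes differ in depth, each cell was then thinned at random to 600 UMIs, a total that every cell reached. At this depth Ager was found in 95.6% and 95.3% of AT1-like cells, Akap5 in 61.8% and 73.0%, Hopx in 61.8% and 48.7%, Clic3 in 55.9% and 41.7%, Rtkn2 in 52.9% and 40.7%, Aqp5 in 44.1% and 47.3%, Pdpn in 26.5% and 35.0% and Scel in 5.88% and 16%. Macrophage/monocyte-like cells, which should lack these genes, gave the background, with 0.901% and 2.91% for Ager and at most 1.80% for each of the others but Hopx. For Hopx, which was higher in them than in other blood cells, they had 3.6% and 4.21%, and this was not read as background. Hopx therefore has no background here, and blood endothelial-like cells had it in 7.06% and 5.08%. The median depth of macrophage/monocyte-like cells before thinning was 1320 and 1790 UMIs. AT2-like cells lay above the background for Ager, at 37.1% and 27.2%, and for Clic3, at 11.8% and 12.3%. They also did for Aqp5, at 5.62% and 7.75%, and for Akap5, at 5.06% and 8.63%. Pdpn was at 1.69% and 1.61% in them, against a background of 1.80% and 1.29%. Scel was at 0% and 0.292%, against 0% and 0.324%. Rtkn2 was at 1.1% and 2.05%, against 0.901% and 0%. Hopx was at 4.49% and 9.65% in AT2-like cells.

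How many of the genes 1 cell showed at once separated the classes at equal depth. At 600 UMIs, AT1-like cells had a median of 4 of the 8 genes in both batches, and 63.2% (Wilson 95% interval 51.4 to 73.7) and 63.7% (58.1 to 68.9) had 4 or more. Not 1 AT1-like cell had none. Mixed alveolar cells had medians of 3 and 2, with 35.4% (23.4 to 49.6) and 15.2% (11.7 to 19.4) at 4 or more, so that the batches differed for them. AT2-like cells reached 4 or more in 0.562% and 0.877%, and 50.6% and 51.6% of them had none. Of macrophage/monocyte-like cells 92.8% and 89.3% had none, and 0 reached 4. Without thinning the AT1-like shares were 89.7% and 97.3%, the mixed alveolar ones 91.7% and 88.7% and the AT2-like ones 8.43% and 24.9%. AT1-like and mixed cells then had the same median of 6 genes in both batches, so the count set these classes apart only after thinning.

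Of all cells with 4 or more genes at 600 UMIs, 43 of 80 in Batch 1 and 191 of 252 in Batch 2 were AT1-like, and 17 and 51 were mixed alveolar. Another 19 in Batch 1 were in unnamed clusters. Outside the epithelium and before thinning, 2 and 5 endothelial cells had 4 or more of the genes, as did 0 and 11 mesenchymal cells, 9 of which Scrublet had called doublets, 1 and 2 immune cells, and 1 and 0 erythroid cells.

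**Figure D3:**
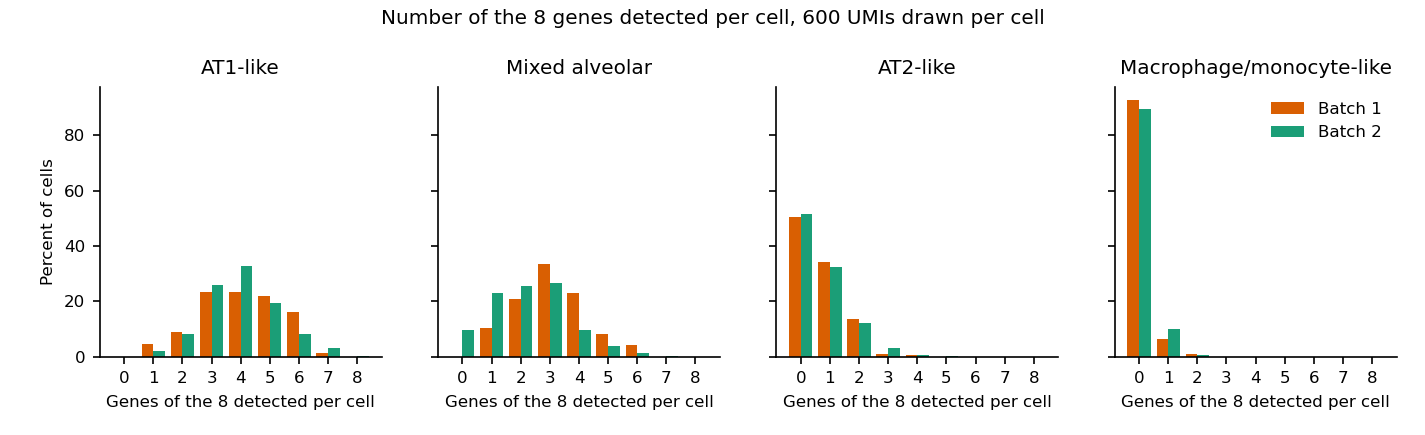
Share of cells (vertical axis, percent) by how many of the 8 genes were detected in the cell after thinning to 600 UMIs, in 4 classes, with orange bars for Batch 1 and green bars for Batch 2. AT1-like cells centre on 4 genes, and 92.8% and 89.3% of macrophage/monocyte-like cells show none.

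Pairs were examined within AT1-like cells at the same 600 UMIs. Ager with Akap5 was the most frequent of the 28 pairs, in 60.3% and 70.3% of cells. Ager was found with Hopx in 57.4% and 45.3%, with Clic3 in 52.9% and 40.0%, and with Rtkn2 in 50.0% and 38.3%. Pdpn with Scel was found in 0% and 7.0%. The share of cells with both genes was set against the product of the single shares, with a median ratio over the 28 pairs of 1.05 in Batch 1 and 1.01 in Batch 2. The ratios ran from 0 to 1.34 in the 68 cells of Batch 1 and from 0.867 to 1.25 in Batch 2. In counts this sparse the ratios are a description and carry no test. In AT2-like cells the pairs were rare, with medians of 0.281% and 0.585% and median ratios of 1.28 and 1.41, and Ager with Clic3 was seen in 5.62% and 3.80%.

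**Figure D4:**
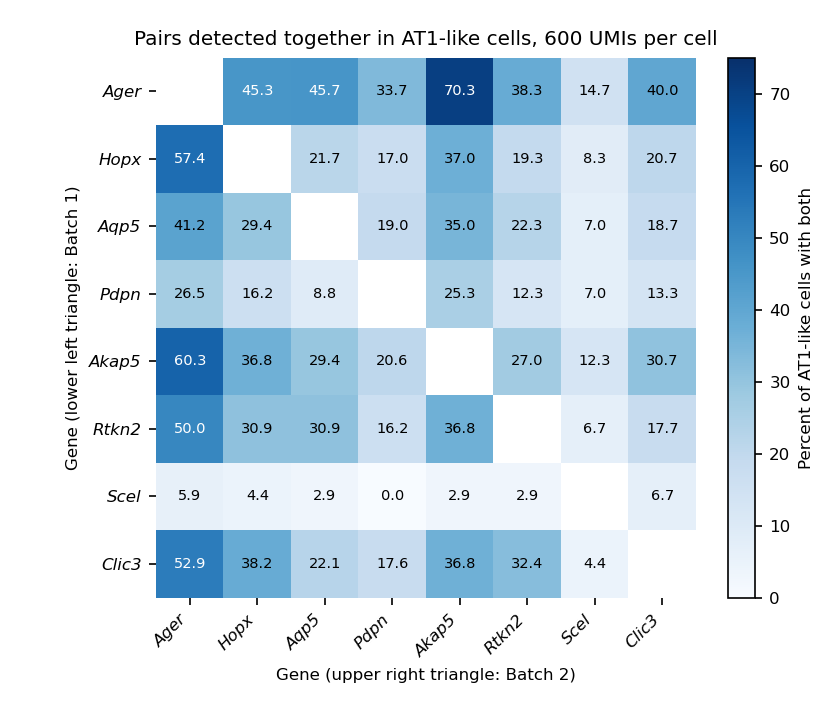
Percent of AT1-like cells in which both genes of a pair were detected after thinning to 600 UMIs, with Batch 1 in the lower left triangle and Batch 2 in the upper right. Ager with Akap5 is the darkest pair at 60.3% and 70.3%, and Pdpn with Scel is at 0% and 7.0%.

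The UMIs of the 8 genes were then traced to the cells that held them. AT1-like, mixed and AT2-like cells made up 12.3% and 23.5% of all cells and held 69.0% and 85.5% of the UMIs of the 8 genes. Without thinning 31% and 26.8% lay in AT1-like cells, and with equal depth per cell 44.1% and 51.0% did. Rtkn2 had 39.0% and 32.8% of its UMIs in AT1-like cells and Hopx 26.8% and 18.1%. In Batch 1, 20.2% of all UMIs of the 8 lay in an unnamed cluster of 39 cells, whose leading lists were the AT1 and the blood endothelial markers (mean log2 folds 1.36 and 1.1). It carried Ager at 39.8 per 10000 in Batch 1, and 48.7% of its cells had 4 or more of the genes at 600 UMIs. Scrublet called 0 of the 39 cells, while of the 31 whose listed type was at hand 24 were listed as contaminants with endothelial and epithelial markers and 5 as AT1 cells. The cluster had 8 cells in Batch 2, with Ager at 17.6, and it entered no fit.

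**Figure D5:**
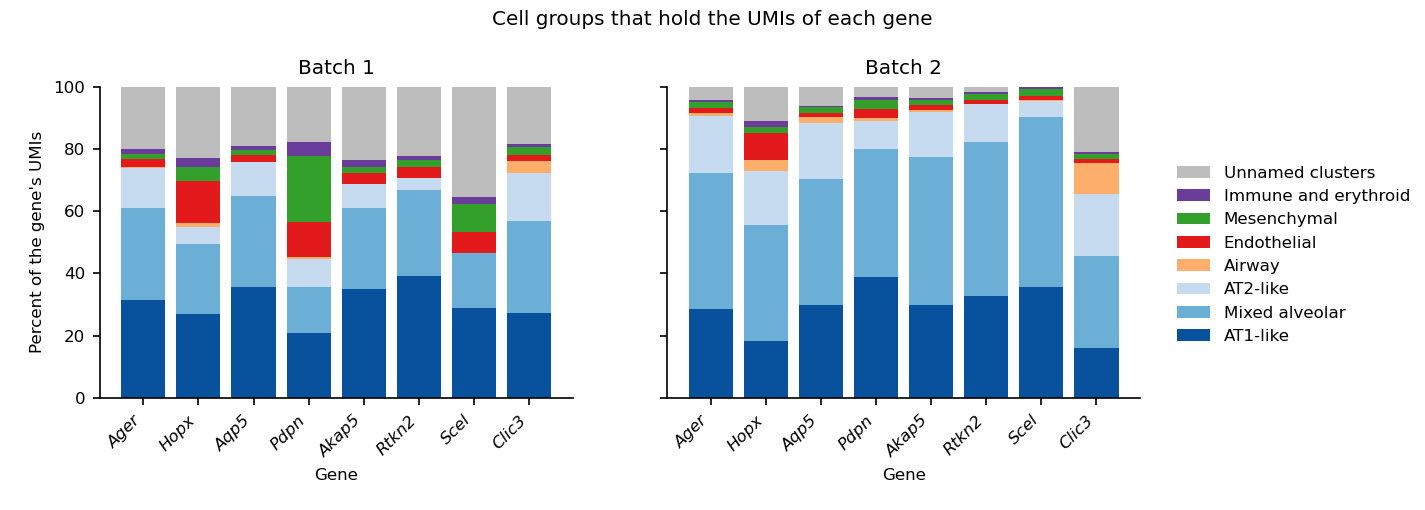
Share of each gene's UMIs (vertical axis, percent) held by 8 cell groups, stacked, with Batch 1 on the left and Batch 2 on the right. Grey unnamed clusters hold 35.6% of Scel in Batch 1 and 0.17% in Batch 2. Green mesenchymal cells hold 21.2% of Pdpn in Batch 1 and 2.93% in Batch 2, beside 35.7% and 17.6% of all UMIs.

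Clic3, Pdpn and Hopx also had UMIs in classes outside the alveolar epithelium. Ciliated-like cells (8 and 36) carried Clic3 at 6.08 and 7.35 per 10000, from 19 and 165 UMIs, which was inside the range of mixed alveolar cells (8.51 and 4.69). Airway secretory-like cells gave 2.99 in Batch 1, where there were only 4 of them, and 8.44 in Batch 2. The latter was near the 9.10 of AT1-like cells of Batch 2. Before thinning 94.1% of the 34 airway secretory-like cells of Batch 2 had a Clic3 UMI. Their median depth was 5300 UMIs, against 1900.5 in AT1-like cells of Batch 2. At 600 UMIs Clic3 was found in 0% and 41.2% of airway secretory-like cells, against 55.9% and 41.7% of AT1-like cells. In Batch 2 a further 50 unnamed cells of very high depth (median 15749.5 UMIs), led by the ciliated genes Dynlrb2 and Foxj1 and also carrying the airway secretory list, held Clic3 at 6.31 and 19.9% of its UMIs. Airway secretory-like cells also carried Hopx at 7.98 and 4.14 and Ager at 8.97 and 4.58, while Rtkn2 had 0 UMIs in both airway classes of Batch 1. No test against the airway was made, since the secretory class had under 10 cells in Batch 1.

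Pdpn was found in 3 classes that line vessels or cavities or surround large structures. Lymphatic endothelial-like cells (20 and 27) carried it at 1.31 and 1.16 per 10000, from 9 and 14 UMIs, against 0.207 and 0.0595 in blood endothelial-like cells. It was the only 1 of the 8 genes called in that contrast (log2 3.36 ± 0.63, adjusted p = 0.000173 by edgeR), where 8.70% of genes tested were called in either direction. Hopx had a log2 value of -1.42 ± 0.59 there (adjusted p = 0.141). Rtkn2 had 0 UMIs in lymphatic cells of both batches. Before thinning 40.0% and 44.4% of lymphatic cells had a Pdpn UMI, at median depths of 2721.5 and 4025 UMIs, and at 600 UMIs 10.0% and 14.8% did, against 1.80% and 1.29% of macrophage/monocyte-like cells.

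Mesothelial-like cells, the covering of the lung surface, were 20 and 11 cells and carried Pdpn at 1.74 and 1.93 per 10000, from 7 and 8 UMIs. Against matrix fibroblast-like cells, Pdpn (3.83 ± 0.74, adjusted p = 0.000235) and Clic3 (3.79 ± 0.76, adjusted p = 0.000382) were called higher by edgeR, 2 of 8 genes where 10.9% of genes tested were called in either direction. Clic3 was at 2.23 and 1.21 per 10000, from 9 and 5 UMIs. Before thinning 35.0% and 54.5% of these cells had a Pdpn UMI, at median depths of 1926.5 and 2462 UMIs, but at 600 UMIs Pdpn was found in 2 of 20 and 0 of 11 cells, as was Clic3. Hopx was not called (1.69 ± 0.68, adjusted p = 0.109), while DESeq2 called it (adjusted p = 0.00913). Aqp5, Rtkn2 and Scel had 0 UMIs in mesothelial-like cells of both batches. Adventitial fibroblast-like cells held Pdpn at 1.17 in Batch 1 and 0.358 in Batch 2, from 24 and 11 UMIs.

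Hopx had 13.3% and 8.85% of its UMIs in endothelial cells, less than the 23.4% and 24.6% of all UMIs that these cells held. Macrophage/monocyte-like cells held it at 0.907 and 0.930 per 10000. Within the blood endothelium Hopx was uneven. A cluster of 42 and 158 cells led by Car4, Clec1a and Prx held Hopx at 4.49 and 2.83 per 10000, with 47.6% and 31.6% of its cells positive at median depths of 1135 and 1330.5 UMIs. Among the other blood endothelial clusters with 10 or more cells the highest level was 2.39 in Batch 1 and 1.33 in Batch 2. The mean log2 fold of the AT1 marker list was -1.36 in the Car4-led cluster, against -2.03 to -2.71 in the other blood endothelial clusters. This cluster was picked after its values were seen, and it received no test.

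Other genes of AT1 cells moved with the 8 in the contrasts of AT1-like cells. Of 20 further AT1 genes, 19 could be tested, and 16 were higher and 0 lower in AT1-like than in AT2-like cells. Their median log2 fold was 2.64, where 5.26% of all genes tested were called higher. These AT1 genes took part in the clustering, so their counts describe the classes. S100a6, a calcium-binding protein, had 53.9 and 61.2 UMIs per 10000 in AT1-like cells and 1.16 and 2.62 in AT2-like cells (log2 4.67 ± 0.53, adjusted p = 9.20e-09). Cryab, a small heat shock protein, and Cav1, the caveolae protein, had log2 folds of 3.91 ± 0.43 and 3.71 ± 0.38. Against blood endothelial-like cells 17 were higher and 0 lower (median 4.56), where 12.3% of all genes were called higher. Cldn18, a tight junction claudin, lay at 7.17 ± 0.56 there. Against mixed alveolar cells 1 was called, Cav1 (1.60 ± 0.35, adjusted p = 0.0036), with a median of 0.69 (1.86% of all genes called). In lymphatic against blood endothelial-like cells 2 were higher and 2 lower (8.70% of all genes called in either direction).

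Family relatives of the 8 genes were read against the same shares of all genes. Of 14 relatives 7 could be tested, and against AT2-like cells 1 was higher and 1 lower, with a median log2 fold of 0.58, too few to set apart from the 5.26% of all genes called higher. Aqp1, a water channel of endothelium, was higher in AT1-like cells (2.40 ± 0.40, adjusted p = 2.25e-05), and Rtkn, the paralogue of Rtkn2, was lower (-3.04 ± 0.59, adjusted p = 0.00022). Against blood endothelial-like cells 1 was higher and 3 lower, the latter being Akap12 (-3.95 ± 0.78), Clic4 (-2.10 ± 0.50) and Clic1 (-1.77 ± 0.36). Of all genes tested 12.3% were called higher there and 928 of 8174 lower. Akap12 stood at 0.154 and 0.0759 per 10000 in AT1-like cells and at 1.25 and 2.06 in the endothelium. Against the mixed class 0 of 7 were called (1.86% of all genes). Between the endothelial classes 1 was higher and 2 were lower in lymphatic cells (8.70% of all genes called in either direction).

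Partners of the encoded proteins were tested as well, 12 of 15 of them. Against AT2-like cells 2 were higher and 0 lower, with a median log2 fold of -0.14. Of all genes tested 5.26% were called higher there, and 2 of 12 are too few to set apart from that share. Msn, which encodes moesin and links podoplanin to actin, was higher (2.75 ± 0.39, adjusted p = 1.12e-06), as was Ppp3ca, the catalytic subunit of calcineurin that Akap5 binds (1.49 ± 0.32, adjusted p = 0.000669). Against blood endothelial-like cells 3 were higher and 2 lower. Of all genes tested 12.3% were called higher there and 928 of 8174 lower, so these counts are not read as a result about the partners. Ezr (ezrin) was higher at 4.10 ± 0.47 and Cd44 lower at -2.80 ± 0.74. Clec1b, which encodes the podoplanin receptor CLEC-2, had 0 UMIs in AT1-like cells of both batches. Against the mixed class 0 of 12 were called (1.86% of all genes). In lymphatic against blood endothelial-like cells 1 was lower (8.70% of all genes called in either direction).

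The genes most like each of the 8 were sought by Pearson's r of log2 level over the 30 sums of 15 classes and 2 batches, among 2436 genes. The sums share libraries and the r values carry no p. For Ager these were Cldn18, Nkx2-1 and Pkp2 (each 0.92), and for Aqp5 Cldn18 (0.94), S100a14 (0.94) and Mal2 (0.93). Akap5 was most like Lmo7 (0.95), a marker used to name the class. Rtkn2 was most like Scnn1g (0.93), Slc6a14 (0.91) and Scnn1b (0.91), the first and last of which encode subunits of the epithelial sodium channel that clears lung fluid. Hopx was most like Tspan15 (0.88) and Col4a3 (0.87), Clic3 like Fgfbp1 (0.92) and Scel like Stk30 (0.89). Pdpn had the lowest best match, Anxa2 at 0.79. Among the 8 themselves r ran from 0.50 for Pdpn with Rtkn2 to 0.96 for Ager with Akap5, with a median of 0.81.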

How the data were processed

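Drop-seq libraries of whole lung from 2 mice (1 per batch) were analysed. The authors deposited raw UMI counts per gene and cell for each batch; per the labels and the study's methods, reads were aligned to mm10 with bowtie2 2.2.7 and unique UMIs per gene over exons were counted with Drop-seq tools. The deposited counts carry no normalization. Total UMIs of the cells kept were 4432553 (Batch 1) and 18232639 (Batch 2).

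Cells with over 10% mitochondrial UMIs were left out. Both batches were clustered together (2000 variable genes without the 8 genes and mitochondrial genes, z-scores within batch, 40 principal components, 15 neighbours, Leiden resolution 3.0). A cluster was named where at least 3 markers of a list were detected in 10% of its cells, and the list's mean log2 fold was at least 1 and at least 1 above the next. Clusters with both alveolar lists at 0.5 or more were called mixed. These thresholds were set after seeing the data. Doublets were called with Scrublet (13 of 2388 and 118 of 5615 cells) and kept, and leaving them out was an alternative. A part of the study's cell list covers some Batch 1 cells, and 56 of its 72 AT1 cells were AT1-like here. Of the 41 mixed alveolar cells with a listed type, 30 were listed as AT1/AT2, the study's type with markers of both, and 9 as AT1.

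Counts were summed by class and batch, for 15 classes with at least 10 cells in each batch, and fitted with edgeR 4.0.16 (TMM, filterByExpr, quasi-likelihood test) in R 4.3.3, with Benjamini-Hochberg adjustment over 8174 genes. DESeq2 1.42.0 was an alternative. The batch entered as a block because classes of a batch come from the same mouse, and deviations of classes from their mean correlated within a batch (median 0.14 over class pairs, range 0.022 to 0.50, with 72 of 105 above 0.1). Values of a batch alone are differences of log2 CPM with a prior count of 2, so they can lie to 1 side of the fit. SE is the log2 fold over the square root of F. The comparison of AT1-like with AT2-like cells was tested on simulated data over 8174 genes, where 6% of 50 genes changed by log2 1 were found, 30% at 1.5, 60% at 2 and 98% at 3, with 3 of 100 calls wrong. Clustering ran under Python 3.11.15 (scanpy 1.11.5, leidenalg 0.10.2). Intervals are 95% Poisson for levels and 95% Wilson for shares, and the floor of a count of 0 is 3 counts. Positions are from GENCODE vM21.

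Named genes were the 8, and from lists of other AT1 genes, relatives and partners those called with the largest folds, up to 4 per list and comparison, in the same direction in both batches. The 3 genes of most like pattern needed 50 CPM in AT1-like cells of both batches. The 8 genes, the lists and the tests were chosen with earlier results of these data known. Alternatives were another normalization and test, no low-count filter, no block, each batch left out, other thinning, a mitochondrial limit of 5% or none, a lower clustering resolution, clustering with the 8 genes, the listed cell types and a deep AT2-like cluster left out.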

Additional observations from a re-analysis of the deposited data

Results flagged for a closer look

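Of the Batch 2 cells, 1940 (25.7%) lay above the mitochondrial limit and entered no comparison, against 1 cell of Batch 1. They are given here because all 8 genes had counts in them above the limit that a count of 0 allows (0.00596 UMIs per 10000 over these cells). The 8 genes together stood at 19.7 UMIs per 10000, against 17.5 in the cells kept. Before thinning 338 of the 1940 cells (17.4%) had 4 or more of the genes, against 837 of the 5615 kept cells of Batch 2. Ager stood at 7.03 (6.53 in the cells kept), Akap5 at 4.33 (3.12), Hopx at 2.35 (2.34), Clic3 at 1.56 (2.08), Aqp5 at 1.49 (1.42), Rtkn2 at 1.44 (1.01), Pdpn at 1.11 (0.730) and Scel at 0.415 (0.323). By the nearest class, 182 of these 1940 cells were AT1-like, against 300 of the 5615 cells kept.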

How the results depend on the processing

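The 8 genes stayed higher in AT1-like than in AT2-like cells in direction under every alternative run. Without the replicate block 414 genes were called between these classes, against 853 with it, and Clic3 (adjusted p = 0.060) was lost, as it was with DESeq2 (0.0635), while Hopx between AT2-like and blood endothelial-like cells was lost without the block (0.093) and with clusters made with the 8 genes (0.123). Between AT1-like and mixed alveolar cells 1 gene was called, against 0, with no filter and with clusters made with the 8 genes, each time Pdpn. Between lymphatic and blood endothelial-like cells the latter clusters gave 2 calls, against 1, the added one being Hopx at -3.35. Scel between AT2-like and blood endothelial-like cells was reversed in Batch 1 alone, without replicate 2, at -0.88, and was 1.57 without replicate 1. With clusters made with the 8 genes (adjusted p = 0.813) and at a mitochondrial limit of 5% (0.358) it was not called. Of 309 values of single genes under another setting, 296 kept their direction and side of the threshold, 9 lost the call and 4 gained it. The mean share over batches of AT1-like cells with 4 or more genes was 63.5%, and was 90.2% at 1200 UMIs, 93.5% without thinning and 67.9% for at least 2 UMIs per gene without thinning. It was 64.4% with clusters made with the 8 genes, 62.4% at a mitochondrial limit of 5%, 64.0% without Scrublet doublets and 61.1% in the listed AT1 cells of Batch 1. The mean share of the genes' UMIs in AT1-like cells was 47.5%, and was 28.9% without thinning and 30.6% for at least 2 UMIs. Leaving out a replicate gave 63.2% to 63.7% and 44.1% to 51.0%. The comparison with airway secretory-like cells was not run, a limit of 5% gave no mesothelial-like value, and the cause of each change was not tested. The alternative without the deep AT2-like cluster was chosen after seeing the data. Scel rests on few counts, 13 UMIs in AT1-like cells of Batch 1.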
